A study of Mus musculus with 6 samples.

Results

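Glycolysis and hypoxia response genes were examined in embryoid bodies, which are clumps of mouse embryonic stem cells left to differentiate. The set comprised 42 genes named for their role: glucose and lactate carriers, the enzymes from hexokinase to lactate dehydrogenase, the kinases that set glycolytic flux, the oxygen-sensing proteins, and well-known targets of the hypoxia-inducible factors. They were found by gene symbol among the arrayed features, without use of measured values, but the list itself was chosen with earlier results of these data known. Of the 42 genes, 40 had at least 1 probe, with 73 probes between them, and 37 lay above background and entered the comparison, which covered 15840 features, 13156 of them named genes. Total RNA was profiled on 6 Illumina bead arrays of 1 slide: 3 labelled KO, from endoglin knockout embryonic stem cells at day 3 of differentiation, and 3 labelled WT, from wild type E14 embryonic stem cells at the same day. Every sample carries the strain label C57BL/6. The labels do not say how the endoglin allele was disrupted, how many knockout clones were used, or whether replicates were separate cultures. The p-values therefore cover the spread among these 6 arrays, which may be technical.

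Glycolysis splits glucose into pyruvate, which is either reduced to lactate and exported or passed to the mitochondrion through the pyruvate dehydrogenase complex. When oxygen is low, the alpha subunits Hif1a and Epas1 escape hydroxylation by the Egln enzymes and destruction by Vhl, pair with Arnt, and activate genes for glucose uptake, glycolysis, lactate production and the block of pyruvate dehydrogenase. Pluripotent cells rely strongly on glycolysis, and the inside of an embryoid body can receive less oxygen than its surface.

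The hypoxia-inducible factors bind the core letters ACGTG or GCGTG. RefSeq promoter windows (assembly GRCm38.p6, 250 bases before to 50 bases after an annotated start) matched 39 of the 42 genes. Both cores were searched on both strands, so that CACGTG counts once on each strand. At least 1 core stood in a window of 35 of the 39 members (89.7%), against 64.3% of 10419 genes above background and 46.7% of all 27025 genes with a window. ACGTG alone stood in 64.1% of the members and in 28.2% of the genes above background. The median GC content was 62.7% in the members and 60.2% in the genes above background. The mean number of windows per gene was 1.33 and 1.27. The part of either in the counts was not tested. The 39 members include Slc16a1, Eno1, Hif1a and Bnip3, which were not measured above background. The list was named partly for known targets of these factors, so a higher share of cores was favoured in advance and tests nothing. The 4 windows below are shown because their genes recur in the results. Pdk1, Egln3 and Slc2a1 varied widely between the arrays. Ldha, with more core matches in the window shown than any of them, ranged over 1.21-fold. Capitals mark the cores.
Pdk1, chr2:71872974-71873273, plus strand: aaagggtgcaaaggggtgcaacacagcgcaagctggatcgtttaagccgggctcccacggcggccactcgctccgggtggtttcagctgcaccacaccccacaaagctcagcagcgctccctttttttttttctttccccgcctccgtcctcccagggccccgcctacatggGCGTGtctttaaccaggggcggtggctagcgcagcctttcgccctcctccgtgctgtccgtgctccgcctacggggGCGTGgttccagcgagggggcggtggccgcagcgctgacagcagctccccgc
Egln3, chr12:54203825-54204124, minus strand: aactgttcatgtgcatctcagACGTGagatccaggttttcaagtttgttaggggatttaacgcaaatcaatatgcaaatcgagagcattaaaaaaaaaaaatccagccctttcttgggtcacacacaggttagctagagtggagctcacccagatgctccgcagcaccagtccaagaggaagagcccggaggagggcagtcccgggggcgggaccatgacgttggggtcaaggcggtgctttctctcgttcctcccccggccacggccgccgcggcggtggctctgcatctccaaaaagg
Slc2a1, chr4:119108495-119108794, plus strand: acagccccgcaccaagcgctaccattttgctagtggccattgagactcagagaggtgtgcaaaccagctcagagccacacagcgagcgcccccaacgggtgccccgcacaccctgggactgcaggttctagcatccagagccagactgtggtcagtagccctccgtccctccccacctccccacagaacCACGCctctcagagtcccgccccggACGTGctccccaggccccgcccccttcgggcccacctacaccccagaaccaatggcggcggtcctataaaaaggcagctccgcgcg
Ldha, chr7:46845554-46845853, plus strand: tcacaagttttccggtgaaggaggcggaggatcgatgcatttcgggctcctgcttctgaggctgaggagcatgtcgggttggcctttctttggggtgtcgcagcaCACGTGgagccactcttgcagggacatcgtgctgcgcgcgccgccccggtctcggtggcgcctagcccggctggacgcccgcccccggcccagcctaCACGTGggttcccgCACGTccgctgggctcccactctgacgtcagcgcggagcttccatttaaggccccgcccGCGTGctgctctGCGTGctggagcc

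The Pdk1 window holds 2 copies of GCGTG, at positions -78 and -2 from the start (first base of the core on the strand of the gene). Of the 2 annotated Pdk1 windows it is the one with a core. Egln3 has 1 copy of ACGTG at -229, and Slc2a1 has ACGTG at -36 and a reverse-strand GCGTG at -61. The Ldha window has 7 matches, of which the 2 CACGTG motifs contribute 4. Of the 2 annotated Ldha windows it is the one with more matches, and the other has 2. These matches are letters in a window and say nothing of binding in these cells.

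Before any comparison, 2 arrays stood apart from their labels. The array labelled KO-1 had 84 and 79 features at least 2-fold apart from KO-2 and KO-3, but 0 and 2 from WT-1 and WT-2. The array labelled WT-3 had 104 and 98 such features against WT-1 and WT-2, and 0 against both KO-2 and KO-3. Eng itself, the targeted gene, measured 73.5, 45.4 and 48.7 under the KO label and 87.0, 90.6 and 44.4 under the WT label, and did not separate the labels with all 6 arrays (difference -0.28, SE 0.22, limma adjusted p = 0.999). Whether the Eng probe falls within the deletion was not determined, so it may check nothing. The arrays that resemble each other also lie next to each other on the slide, with KO-1, WT-1 and WT-2 at positions A to C and KO-2, KO-3 and WT-3 at D to F, so that position and any mismatch of samples and labels cannot be told apart. All intensities are linear values as deposited, background is an intensity of about 46.3 on each array, and log2 values are background-corrected. Since these are bulk samples, fewer cells of a type and less RNA per cell cannot be told apart.

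The sums of all 4 marker lists split along the same arrays. The summed intensity of 7 measured haemangioblast markers of 8 was 6632, 2762 and 2545 on the KO arrays and 7018, 7193 and 2463 on the WT arrays, high on KO-1, WT-1 and WT-2. All 7 primitive streak markers were measured, and their sum, 15579, 12258 and 12522 on the KO arrays and 15372, 15617 and 10577 on the WT arrays, was high on the same 3. The list did not move as one, since T, Mixl1, Wnt3 and Mesp1 were high on those arrays, Fgf8 was low on them, and Gsc and Eomes overlapped. For 12 of 12 naive pluripotency markers the sums were 3896, 4140 and 4119 on the KO arrays and 3876, 3639 and 4265 on the WT arrays, high on KO-2, KO-3 and WT-3. Of 10 fibroblast markers, 5 were measured. Their sums were 1340, 1481 and 1572 on the KO arrays and 1247, 1420 and 1492 on the WT arrays. These were high on the same 3 arrays as the pluripotency sums. The collagens Col1a1, Col1a2 and Col3a1 were not above background. These lists did not move as one either. Tbx3, a naive pluripotency marker, went against its sum, at 356, 84.9 and 100 on the KO arrays and 402, 385 and 78.5 on the WT arrays. Klf4, Klf5, Tcl1, Fbxo15 and Prdm14 overlapped. Nanog gave the largest part of that sum. Among the fibroblast markers, Fbln1 gave the largest part, Twist2 went against the sum, and Dcn and Acta2 overlapped. Kdr was the haemangioblast marker that overlapped. T (brachyury), which marks the mesoderm that forms at this stage, measured 4157 to 5612 under the KO label and 3591 to 5323 under the WT label. The part of cell composition in the results that follow was not tested.

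No member passed the test between the labels. With all 6 arrays, 0 of 37 rose and 0 fell at an adjusted p under 0.05 (limma, two-sided, Benjamini-Hochberg over all features), as did 0% of all features. At an unadjusted p under 0.05 there were 0 members, where 2.17% of all features lay. In all, 19 members had higher and 17 lower mean values under the KO label, with 1 at 0.00, and the median log2 difference of 0.01 stood beside 0.003 for all features. Single differences ran from -0.26 to 0.33 with standard errors of 0.06 to 0.29, so the comparison measured the steadiest members far more tightly than the most variable ones. The KO arrays lay wholly above the WT arrays for 1 member, Slc16a3 (2.7%), and wholly below for 0, while 6.89% of all features did not overlap.

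**Figure D1:**
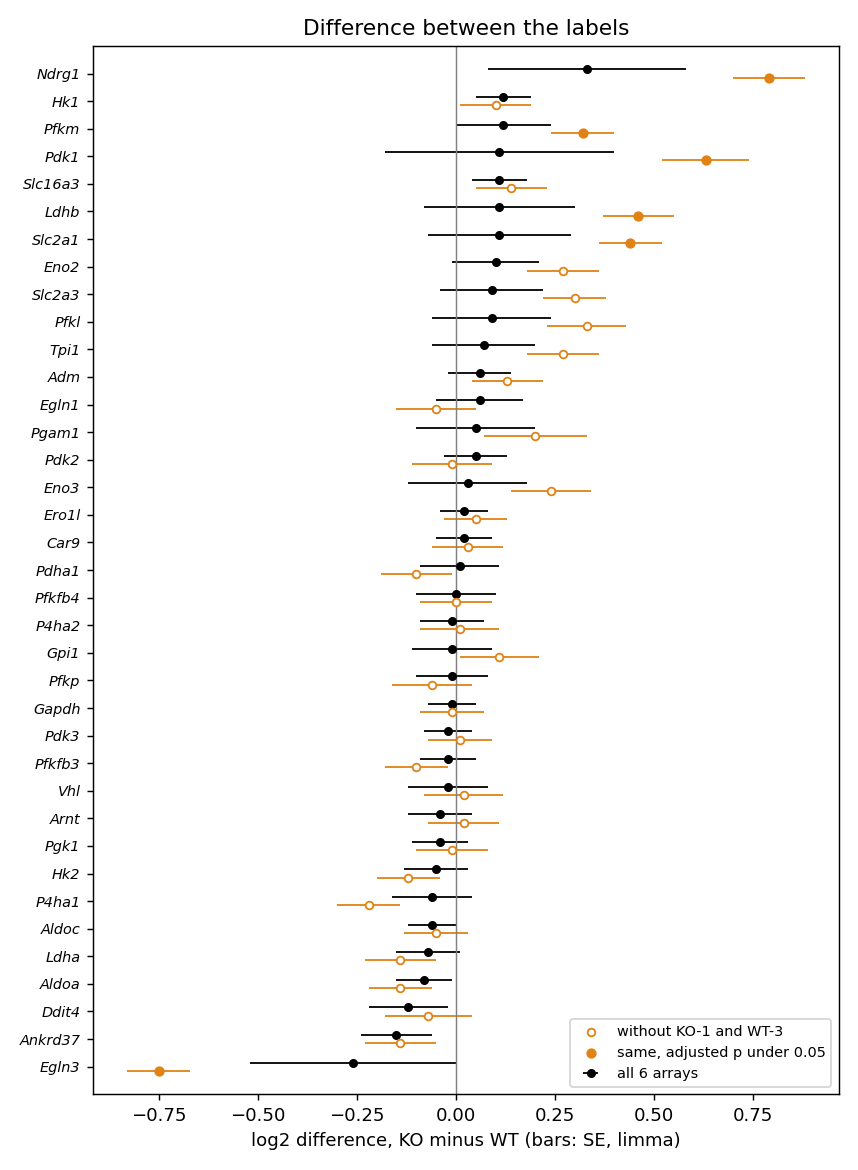
Log2 difference, KO minus WT, of the 37 measured members, with limma standard errors as bars, for all 6 arrays (black) and without the arrays labelled KO-1 and WT-3 (orange, filled where the adjusted p was under 0.05). With all arrays the values lie between -0.26 (Egln3) and 0.33 (Ndrg1), and the 6 filled points are those of Ndrg1, Pdk1, Ldhb, Slc2a1, Pfkm and Egln3.

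The spread between arrays was uneven over the set. Of 37 members, 5 (13.5%) ranged over 1.5-fold between the highest and lowest array on the corrected scale, against 5.81% of all features. These 5 were Pdk1, Ndrg1, Egln3, Slc2a1 and Ldhb, 1 from each functional group. The median range was 0.30 on the log2 scale for the members and 0.26 for all features. For the 16 measured glycolytic enzymes it was also 0.30, and 6.25% of them ranged over 1.5-fold. The correction shrinks differences of dim probes, and the part of brightness in these comparisons was not tested. The arrays at positions D to F lay wholly above those at A to C for 9 members and wholly below for 4, together 35.1%, which is near the 30.6% of all features that did so. The 9 were Slc2a1, Slc2a3, Ldhb, Pfkl, Tpi1, Eno2, Pfkm, Pdk1 and Ndrg1, and the 4 were Egln3, Ldha, P4ha1 and Pfkfb3. These 2 sets of positions were chosen with the earlier results known and do not compare labels.

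**Figure D2:**
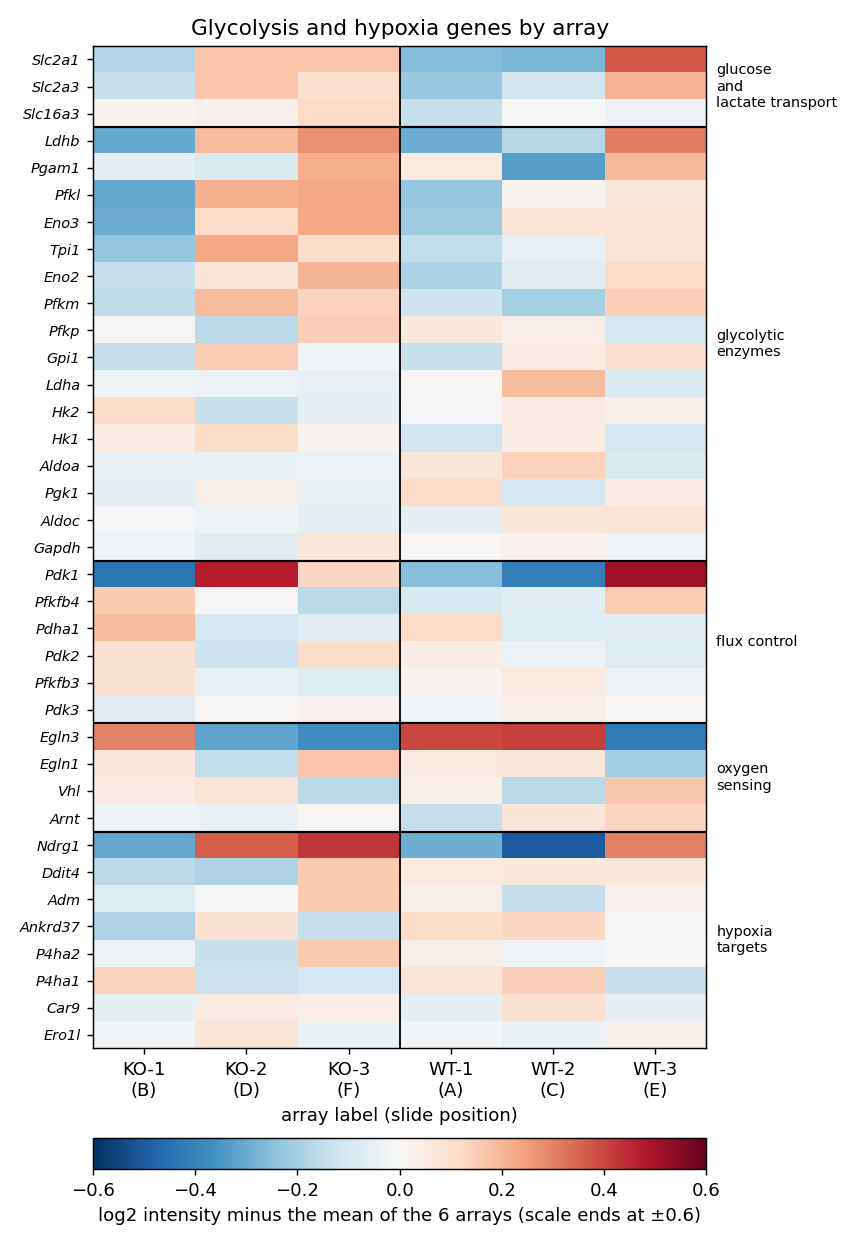
Log2 intensity of each measured member minus its mean over the 6 arrays, by array label with the slide position in brackets; red is above and blue below the mean, and members are grouped by role and ordered by range. KO-2, KO-3 and WT-3 are red for Pdk1, Ndrg1, Slc2a1 and Ldhb and blue for Egln3, and KO-1, WT-1 and WT-2 have the opposite colours.

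Of the carriers, Slc2a1 encodes the widespread glucose transporter GLUT1 and is a classic hypoxia target. Its intensities were 1738, 2210 and 2210 on KO-1, KO-2 and KO-3, and 1636, 1620 and 2554 on WT-1, WT-2 and WT-3. The high arrays were KO-2, KO-3 and above all WT-3, so both labels hold a high and a low level and they overlap. On the log2 scale Slc2a1 averaged 11.01 ± 0.20 under the KO label and 10.90 ± 0.37 under the WT label (SD, n = 3 each), a difference of 0.11 (SE 0.18, limma adjusted p = 0.999). Slc2a3, the high-affinity glucose transporter GLUT3 of embryonic and neuronal cells, measured 2554, 3148 and 2994 on the KO arrays and 2390, 2593 and 3239 on the WT arrays. Its 3 highest arrays were those of Slc2a1, with a smaller range of 1.35-fold and a difference of 0.09 (SE 0.13).

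The lactate exporter Slc16a3 (MCT4), itself a hypoxia target, was the 1 measured member whose labels did not overlap. It measured 78.6, 79.4 and 86.1 on the KO arrays and 68.2, 77.3 and 75.1 on the WT arrays. The gap between the lowest KO array and the highest WT array was small against the spread, and the difference was 0.11 (SE 0.07, unadjusted p = 0.13, limma adjusted p = 0.999). Its second probe gave 62.9, 62.2 and 60.5 on the KO arrays and 58.6, 57.4 and 58.8 on the WT arrays, a difference of 0.06 (SE 0.06). Slc16a1 (MCT1), which carries lactate in both directions, had 1 probe that lay below background on all 6 arrays, between 35.7 and 42.6.

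Among the glycolytic enzymes, 16 of 17 were measured, 8 with higher and 8 with lower values under the KO label, all between -0.08 and 0.12 on the log2 scale, and 0 passed. Eno1, the main enolase, was the 17th and had no probe named for it. The first step is catalysed by Hk1, the housekeeping hexokinase, and by Hk2, the inducible form. Hk2 measured 2887, 2434 and 2561 on the KO arrays and 2674, 2764 and 2727 on the WT arrays. The WT values lie inside the range of the KO values, and the difference was -0.05 (SE 0.08). Hk1 gave 163, 171 and 160 under the KO label and 143, 163 and 145 under the WT label; WT-2 reached the KO level, and the difference of 0.12 (SE 0.07, unadjusted p = 0.132, limma adjusted p = 0.999) was among the 4 with the smallest p. The second deposited table gives the Hk2 probe the name of a predicted locus, so its value is uncertain.

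Downstream of hexokinase, Gpi1, which isomerises glucose 6-phosphate, differed by -0.01 (SE 0.10). The 3 phosphofructokinase subunits catalyse the committed step. Pfkl, the liver-type subunit, measured 1924, 2781 and 2801 on the KO arrays and 2031, 2418 and 2501 on the WT arrays. Its lowest arrays were KO-1 and WT-1, its range was 1.45-fold, and the difference was 0.09 (SE 0.15). Pfkm, the muscle type, measured 893, 1138 and 1094 on the KO arrays and 913, 862 and 1101 on the WT arrays, so KO-2, KO-3 and WT-3 again formed the high arrays. Its second probe did not keep that order, at 107, 142 and 138 on the KO arrays and 119, 147 and 185 on the WT arrays, and the 2 probes differed in sign (0.12 and -0.18). Pfkp, the platelet type, ranged over only 1.24-fold.

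The enzymes of the lower pathway include genes often used as loading controls. Gapdh, the most familiar of them, measured 24826, 24094 and 26343 on the KO arrays and 25297, 25568 and 24826 on the WT arrays, a range of 1.09-fold. All 3 of its probes were bright and differed by -0.06 to -0.01 between the labels, although the second deposited table gives 2 of them the name of a predicted similar gene, which makes their values uncertain. Pgk1, which makes the first ATP of the pathway, ranged over 1.16-fold, at 2461, 2629 and 2479 on the KO arrays and 2775, 2385 and 2643 on the WT arrays (difference -0.04, SE 0.07). Aldoa and Aldoc, the aldolases, ranged over 1.17-fold and 1.10-fold. Tpi1, which interconverts the triose phosphates, varied more, at 3854, 5333 and 4903 on the KO arrays and 4083, 4389 and 4812 on the WT arrays, and KO-1 was its lowest array.

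Enolase and mutase genes differed in steadiness from these. Eno3, the muscle enolase, measured 234, 320 and 349 on the KO arrays and 250, 312 and 311 on the WT arrays, with the low values on KO-1 and WT-1. The neuronal enolase Eno2 was dim, between 54.7 and 79.2, and differed by 0.10 (SE 0.11). Pgam1, the phosphoglycerate mutase, measured 129, 125 and 160 on the KO arrays and 141, 102 and 157 on the WT arrays. It was the widest-ranging member after the 5 named above, with KO-3 and WT-3 high and WT-2 low as for Slc2a1, while KO-2, high for Slc2a1, lay below KO-1 and WT-1.

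The lactate dehydrogenases parted. Ldha, which favours lactate production, was bright, at 13322, 13224 and 13125 on the KO arrays and 13622, 15464 and 12748 on the WT arrays. Its range was 1.21-fold, and its 3 lowest values lay on KO-2, KO-3 and WT-3. The difference of -0.07 (SE 0.08) was smaller than the spread between the WT arrays. Ldhb, the subunit that favours pyruvate, measured 1155, 1633 and 1731 on the KO arrays and 1160, 1266 and 1776 on the WT arrays. The high arrays were WT-3, KO-3 and KO-2, the range was 1.53-fold, and the labels overlapped (difference 0.11, SE 0.19, limma adjusted p = 0.999). The second deposited table gives the bright Ldhb probe the name of a predicted gene, an Ldhb pseudogene in RefSeq, so its value is uncertain. A second, dim Ldhb probe had its 3 highest values on the same 3 arrays, at 62.8, 63.7 and 67.7 on the KO arrays and 59.0, 53.1 and 68.4 on the WT arrays.

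**Figure D3:**
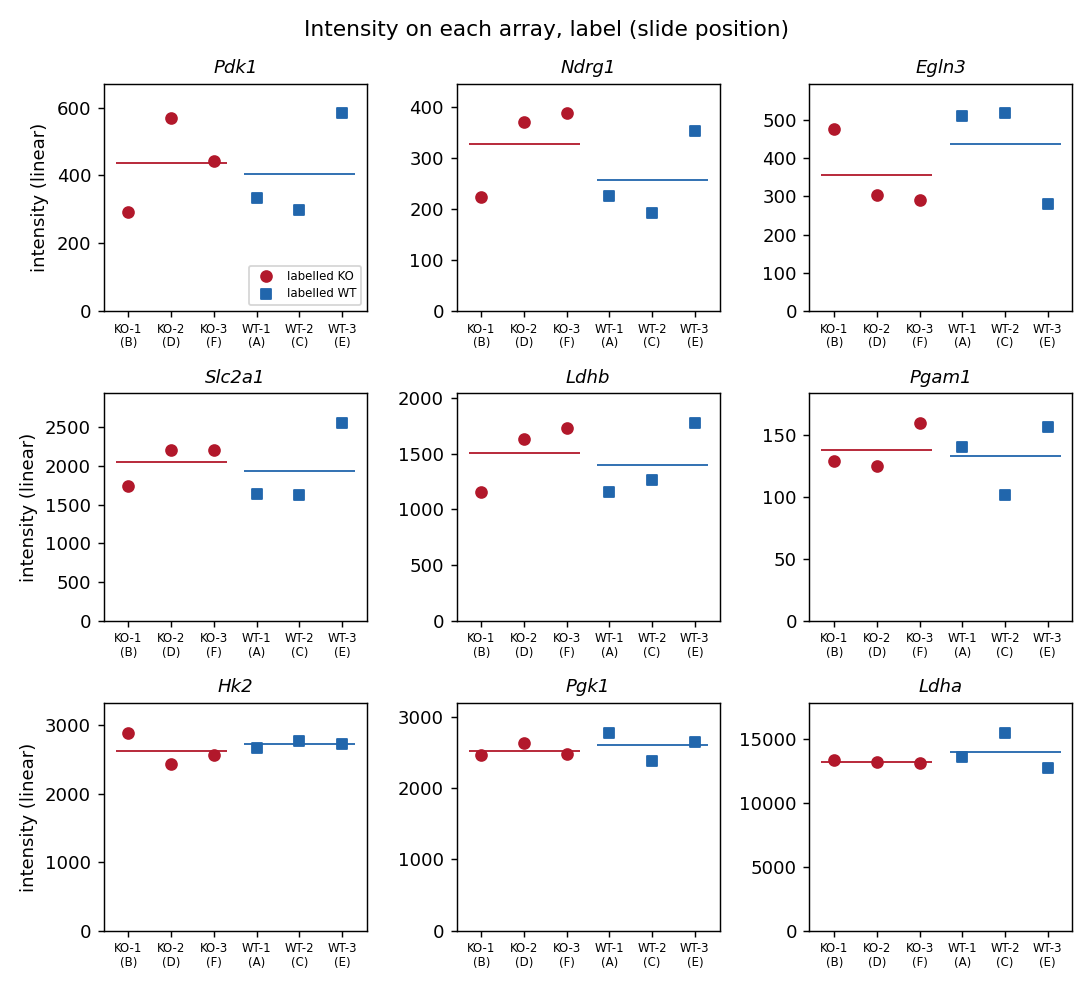
Linear intensity on each array, labelled KO (red circles) and labelled WT (blue squares) with slide positions in brackets and horizontal lines at the mean of each label, for the 6 members with the widest range and for Hk2, Pgk1 and Ldha. Pdk1, Ndrg1, Slc2a1 and Ldhb are higher on KO-2, KO-3 and WT-3 than on the other 3 arrays, and Egln3 is lower there. Hk2, Pgk1 and Ldha range less, and Ldha is also lower on KO-2, KO-3 and WT-3.

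The flux-control genes held the widest-ranging member. Pdk1, a kinase that shuts off pyruvate dehydrogenase and a direct hypoxia target, measured 293, 569 and 443 on the KO arrays and 334, 298 and 583 on the WT arrays. WT-3 and KO-2 were highest and KO-1 and WT-2 lowest, a range of 1.92-fold on the corrected scale. It averaged 8.79 ± 0.46 under the KO label and 8.68 ± 0.49 under the WT label (log2, SD, n = 3 each), a difference of 0.11 (SE 0.29, limma adjusted p = 0.999). A second probe near background put the same arrays high, at 49.6, 56.4 and 57.4 on the KO arrays and 43.4, 34.5 and 62.8 on the WT arrays. The related kinase Pdk3 was flat between 430 and 466, and Pdk2 was above background on 2 KO arrays and 1 WT array only. Pdha1, the catalytic subunit that these kinases phosphorylate, ranged from 1676 to 2048. Pfkfb3 and Pfkfb4, which make an activator of phosphofructokinase, ranged from 71.9 to 83.9 and from 103 to 134.

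Oxygen sensing was only partly measured. The 3 Hif1a probes lay below background on all 6 arrays, between 31.5 and 43.4, and Epas1 had no probe, so the level of either alpha subunit is not known here. Arnt, their partner, measured 363, 362 and 375 on the KO arrays and 336, 393 and 409 on the WT arrays (difference -0.04, SE 0.08). Vhl, the ubiquitin ligase subunit, differed by -0.02 (SE 0.10), and Egln1, the main prolyl hydroxylase, by 0.06 (SE 0.11). Dimmer Egln1 probes differed in sign, at 0.07 (SE 0.08) and -0.10 (SE 0.07). Egln3, a hydroxylase that is itself induced by hypoxia, ran opposite to Pdk1. It measured 477, 303 and 291 on the KO arrays and 512, 518 and 279 on the WT arrays, high on KO-1, WT-1 and WT-2 and low on the other 3 arrays. The difference was -0.26 (SE 0.26, limma adjusted p = 0.999). Its second probe gave 81.5, 74.3 and 65.3 on the KO arrays and 78.4, 76.9 and 73.0 on the WT arrays, again with KO-1, WT-1 and WT-2 above the other 3 arrays, over a smaller range (0.24 against 0.84 on the log2 scale).

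Of the 9 further hypoxia targets, 8 were measured, 4 with higher and 4 with lower values under the KO label, and 0 passed. Ndrg1, a stress-induced gene of differentiating cells, had the highest difference of all members. It measured 223, 369 and 387 on the KO arrays and 225, 192 and 352 on the WT arrays. KO-2, KO-3 and WT-3 were high, KO-1, WT-1 and WT-2 low, and the difference was 0.33 (SE 0.25, unadjusted p = 0.229, limma adjusted p = 0.999). A second Ndrg1 probe put the same 3 arrays high, at 215, 374 and 348 on the KO arrays and 223, 210 and 325 on the WT arrays (difference 0.27, SE 0.22).

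The remaining targets each ranged over less than 1.5-fold. Ankrd37, a small ankyrin-repeat target, had the smallest p of the set and measured 48.8, 63.6 and 50.9 on the KO arrays and 64.9, 65.6 and 58.1 on the WT arrays. KO-2 lay within the WT range, and the difference was -0.15 (SE 0.09, unadjusted p = 0.12, limma adjusted p = 0.999). Ddit4, an inhibitor of mTORC1 signalling, differed by -0.12 (SE 0.10), and the vasodilator peptide gene Adm, above background on 2 arrays of each label, by 0.06 (SE 0.08). The collagen prolyl hydroxylases P4ha1 and P4ha2 differed by -0.06 (SE 0.10) and -0.01 (SE 0.08). Car9, a carbonic anhydrase that is among the most hypoxia-specific genes, stayed between 56.3 and 65.0, and the oxidoreductase Ero1l between 53.1 and 59.6. The 1 probe of Bnip3, a mitophagy receptor, was below background throughout, at 29.8 to 37.7.

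Of a list of 65 further glycolysis, pyruvate and hypoxia genes, 50 were measured, and 0 rose and 0 fell with all 6 arrays (median difference -0.015). The smallest p belonged to Plod1, a collagen lysyl hydroxylase, at 92.1, 92.9 and 97.2 on the KO arrays and 116, 110 and 124 on the WT arrays. Its labels did not overlap, but the difference of -0.25 (SE 0.06) had a limma adjusted p of 0.999. Next was Pdhb, the beta subunit of pyruvate dehydrogenase, at 157, 145 and 125 on the KO arrays and 207, 166 and 155 on the WT arrays (difference -0.26, SE 0.11, limma adjusted p = 0.999).

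The result depended on the 2 arrays that stood apart. Without KO-1 and WT-3, left out because of their values, 5 members were higher and 1 lower under the KO label, together 16.2% of the 37, where 8.34% of all features passed. The 5 were Ndrg1 (0.79, SE 0.09, limma adjusted p = 0.000357), Pdk1 (0.63, SE 0.11, adjusted p = 0.00619), Ldhb (0.46, SE 0.09, adjusted p = 0.00697), Slc2a1 (0.44, SE 0.08, adjusted p = 0.00655) and Pfkm (0.32, SE 0.08, adjusted p = 0.0347). Egln3 was lower, at -0.75 (SE 0.08, adjusted p = 0.000207). Slc2a3 (0.30, adjusted p = 0.0549) and Pfkl (0.33, adjusted p = 0.0617) did not pass, nor did Ldha (-0.14, adjusted p = 0.422), Pgk1 (-0.01, adjusted p = 0.968) or Hk2 (-0.12, adjusted p = 0.452). Eng was lower as well, at -0.67 (SE 0.08, adjusted p = 0.000484). The median difference of all 37 members was 0.02, beside 0.009 for all features. These 2 KO and 2 WT arrays lie at different sets of slide positions (D to F and A to C), so label and position cannot be told apart among them, and arrays chosen for their values give no independent evidence of an effect.

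For the 5 widest-ranging members, the differences between the labels within positions A to C and within D to F ran from -0.21 to 0.10. Some other members differed more within a set, such as Ankrd37 (-0.30 within A to C) and Pfkfb4 (0.23 within A to C and -0.23 within D to F). For Pdk1, KO-1 minus the mean of WT-1 and WT-2 was -0.10 on the log2 scale, and the mean of KO-2 and KO-3 minus WT-3 was -0.21. For Ndrg1 the values were 0.09 and 0.10, and for Egln3 they were -0.11 and 0.08. For Slc2a1 they were 0.09 and -0.21, and for Ldhb -0.07 and -0.08. With these 2 position sets as a block, the difference was -0.15 (SE 0.10) for Pdk1, 0.09 (SE 0.08) for Ndrg1, -0.01 (SE 0.07) for Egln3 and -0.06 (SE 0.08) for Slc2a1. In that fit 0 of 37 members and 0% of all features passed. For these 5 genes the values differed more between the position sets than between labels within a set. The genes were picked for their wide range, and the position sets with earlier results known. That choice favours this outcome, which is therefore no evidence on position or label. Each difference within a set also rests on 1 array of 1 label.

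**Figure D4:**
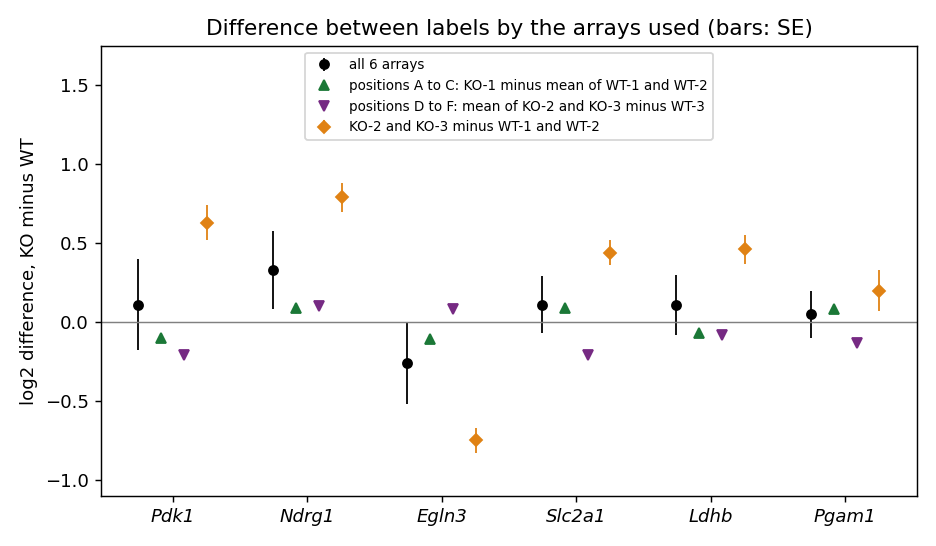
Log2 difference, KO minus WT, for the 6 members with the widest range, by the arrays used: all 6 (black, bars are SE), positions A to C (green), positions D to F (purple), and KO-2 and KO-3 against WT-1 and WT-2 (orange, bars are SE). The differences within a position set lie between -0.21 and 0.10, while the orange ones reach 0.79 for Ndrg1 and -0.75 for Egln3.

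In the pathway list, 8 of 50 genes (16%) passed without KO-1 and WT-3, where 8.34% of all features passed. They are named here after their values were seen. The arrays were again chosen for their values, and label and position cannot be told apart among them. The higher ones were Hif3a, an alpha subunit known to restrain the others, at 0.74 (SE 0.11), Pgm1, which feeds glucose 1-phosphate into glycolysis, at 0.50 (SE 0.08), and the transcriptional repressors Bhlhe40 at 0.44 (SE 0.10) and Mxi1 at 0.44 (SE 0.09). The lower ones were Tceb1, the elongin C partner of Vhl, at -0.57 (SE 0.10), the angiogenic ligand Vegfa at -0.42 (SE 0.10), the carbonic anhydrase Car12 at -0.40 (SE 0.08) and Pdhb at -0.40 (SE 0.11). Hif3a measured 404, 619 and 737 on the KO arrays and 356, 436 and 708 on the WT arrays. As for Pdk1, Ndrg1, Slc2a1 and Ldhb, its high arrays were KO-2, KO-3 and WT-3. Vegfa measured 119, 80.3 and 81.6 on the KO arrays and 129, 104 and 88.0 on the WT arrays, and its 3 lowest values were on the same 3 arrays. These hypoxia-related genes had both patterns, with Pdk1, Ndrg1 and Slc2a1 high on the arrays where Egln3 and Vegfa were low. Both patterns were common among all features, of which 2471 lay wholly higher at positions D to F and 2373 wholly lower.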

How the data were processed

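Bead-array intensities of 6 samples were analysed as the authors deposited them, on a linear scale, 1 value per probe and array. Software and normalization: not given in the sources used here. All columns share 1 highest value (32123), and their medians lie between 45.06 and 45.10. RNA was amplified to biotinylated cRNA, per the labels' protocols. A second deposited table numbers its 12 value columns in a way that matches no sample label, so these were not used. It supplied gene symbols for 7384 probes that the platform annotation does not name; the annotation names 29976 of 46632 probes, and 9262 stayed unnamed.

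Normexp correction with an offset of 50 preceded the log2 step, which shrinks differences of dim probes. A probe was kept when at least 3 arrays passed the background limit, the 95th percentile of a normal curve centred on the peak of the log2 intensities. Each gene was represented by its brightest probe. KO and WT were compared over all 6 arrays with limma 3.58.1 in R 4.3.3 (lmFit, eBayes, two-sided, Benjamini-Hochberg, threshold 0.05). The fit was also run on simulated data with independent noise on each array. Those data held no split by slide position, so they do not check the fit under the split seen here. The members and lists were chosen with earlier results of these data known. Values were given for the 6 members with the widest range, the 4 with the smallest p, and the main transporters, enzymes and regulators; in the pathway list, for the 2 with the smallest p. Values on each array of Slc2a3, Pfkl, Pfkm, Tpi1, Gapdh, Eno3, Arnt, Hif3a and Vegfa were added after they were seen. Other settings tried were the filter, the probe choice, the background correction, a quantile step, the moderation, replicate and slide position blocks, and arrays left out. The number of arrays limits the precision.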

Additional observations from a re-analysis of the deposited data

How the results depend on the processing

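Under all single changes of setting, namely the background correction, a further quantile step, the filter on dim probes, every probe tested, trend and robust moderation, the replicate block, the slide position block and each array left out in turn, 0 features, 0 members and 0 pathway genes passed in limma. Without the arrays labelled KO-1 and WT-3 together, 1321 features, 6 members and 8 pathway genes passed; the cause was not tested. The median member difference stayed between -0.020 (slide position block) and 0.020 (without WT-3), with 0.013 as reported. Slc2a1, Pdk1 and Ldhb changed sign under 3 of 16 alternatives each without passing in the opposite direction, while Ndrg1 (0.09 to 0.79) and Egln3 (-0.75 to -0.01) kept theirs. With the replicate block 0 members passed and the median stayed at 0.013. The deviations of same-numbered arrays correlated at 0.62, -0.31 and 0.54 across features. The positive values belong to arrays of the same position set, and the negative value to arrays of different sets. Whether the numbers pair the arrays therefore cannot be told from these values. Pdk2 and Adm dropped out when a probe had to exceed background on all 6 arrays. Low signal over background limits the dim members, and 3 members, Slc16a1, Hif1a and Bnip3, gave no measurement.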
